A study of Homo sapiens with 14 samples.

Results

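The HOX genes of clusters A, B, C and D were followed across 14 RNA-seq libraries of K562, an established human cell line from chronic myeloid leukemia that has features of red cell precursors. The members were all genes of the count table whose symbol is HOX, a cluster letter and a number, which gave 39 of 24729 genes: 11 in cluster A on chromosome 7, 10 in cluster B on chromosome 17, 9 in cluster C on chromosome 12 and 9 in cluster D on chromosome 2. A filter on low counts kept 19 of the 39 for testing: 1 of cluster A, 8 of B, 6 of C and 4 of D. The study profiled these cells with and without dCas9, a Cas9 that binds DNA but does not cut it, and guide RNAs. Unmodified cells were the WT group (n = 2). Cells of the other 4 groups carried FB-dCas9 (dCas9 with the tag FB), the biotin ligase BirA and an sgRNA: sgGal4, the non-targeting control, or sgHS2, sgHBG or sgHS1-5, named for elements of the β-globin locus (n = 3 each). Thus WT differed from sgGal4 by dCas9, BirA and the sgRNA together, and each sgRNA group was a cell population of its own. Nothing in the labels ties replicates to separate cultures, and the p-values therefore reflect only how far these libraries spread, which may be technical.

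HOX genes encode homeodomain transcription factors that set positional identity along the body axis, and in blood they are most active in stem and progenitor cells and are shut down as cells mature. Genes of a cluster are arranged in the order in which they act from head to tail, and paralogues of the same number sit in different clusters. Their activity depends on Trithorax-type activators and Polycomb repressors, and their proteins bind DNA with partner homeodomain proteins.

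The libraries held 5694448 to 11335831 counted reads, and the sgHS1-5 libraries were the shallowest. A count of 0 allowed up to 0.262 to 0.486 CPM, depending on the library. CPM here is the read count scaled to library size and by TMM, a trimmed-mean library factor, and RPKM is also per kilobase of transcript. All 17 erythroid markers had reads in every library, with summed levels of 2190 to 3420 CPM over all libraries. In bulk RNA, fewer cells that use a gene and less RNA per cell cannot be told apart. Library sgGal4 1 had a TMM factor of 0.743, against 0.959 and 0.962 in its replicates. The sgHS1-5 libraries held transcripts of other blood cells, most in sgHS1-5 2 and 3 and fewer in sgHS1-5 1, as given with cluster A. Where a call reported here was lost or gained without sgGal4 1, or without sgHS1-5 2 and 3 together, this is given beside it.

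The promoters of 3 HOXD genes are shown first because HOXD transcripts differed most in kind between groups. HOXD13 and HOXD4 had no counted read in WT and counted reads in all sgGal4 libraries, whereas HOXD8 had reads in WT. RefSeq's promoter table (GRCh38.p14) had entries for 20 of the 39 members. The 250 bases before each start are printed 5′ to 3′ on the plus strand, at chr2:176092471-176092720 for HOXD13, chr2:176129455-176129704 for HOXD8 and chr2:176151300-176151549 for HOXD4, with CG dinucleotides in capitals.
HOXD13: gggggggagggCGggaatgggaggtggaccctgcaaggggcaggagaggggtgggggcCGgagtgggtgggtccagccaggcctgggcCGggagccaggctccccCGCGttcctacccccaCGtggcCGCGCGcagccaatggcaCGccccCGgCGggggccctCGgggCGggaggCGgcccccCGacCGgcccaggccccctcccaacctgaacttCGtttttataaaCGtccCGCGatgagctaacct
HOXD8: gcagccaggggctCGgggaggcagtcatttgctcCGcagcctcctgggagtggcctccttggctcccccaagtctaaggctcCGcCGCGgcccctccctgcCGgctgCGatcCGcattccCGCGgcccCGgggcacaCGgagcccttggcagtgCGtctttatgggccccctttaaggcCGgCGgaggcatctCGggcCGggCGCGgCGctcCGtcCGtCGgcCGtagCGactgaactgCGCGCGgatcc
HOXD4: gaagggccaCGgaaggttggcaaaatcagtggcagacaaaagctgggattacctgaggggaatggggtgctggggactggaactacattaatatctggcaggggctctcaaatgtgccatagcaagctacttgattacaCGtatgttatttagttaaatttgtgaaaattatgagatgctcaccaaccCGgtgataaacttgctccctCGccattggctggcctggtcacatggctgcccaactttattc
HOXD13 and HOXD8 held 21 and 28 CG dinucleotides and were 74.0% and 72.4% G and C, whereas HOXD4 held 4 and was 47.6%. The median over 35116 promoters of this length was 11. The motif TATAAA, searched on both strands, was in the HOXD13 window and in 10.7% of all promoters. CCAAT was in the HOXD13 and HOXD4 windows and in 32.0% of all promoters. TGATTNAT, a letter pattern of HOX proteins bound with a partner, was in none of the 3 windows and in 2.48% of all promoters. These matches describe letters only.

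HOX expression in K562 was mostly expression of cluster B. HOXB transcripts made up 95.9% ± 0.03 (SD, n = 2) of HOX reads in WT and 91.5% ± 3.89 (SD, n = 3) in sgHS1-5, the lowest group mean. On the per-length scale, the authors' RPKM in WT was 143.2 and 143.8 for HOXB9, a posterior-type gene of the cluster. HOXB2 followed with 33.6 and 36.6 RPKM, then HOXB4 with 25.9 and 27.4, HOXB8 with 21.8 and 21.2, HOXB7 with 20.3 and 20.2, and HOXB3 with 14.4 and 15.6. HOXC9 was the highest gene outside cluster B, with 7.50 and 7.43 RPKM. HOXB1, the most anterior-acting member, had 1 read in 14 libraries, and HOXB13, at the other end, had 10. The summed level of all 39 members was 547.6 ± 23.6 CPM in WT, 426.9 ± 21.2 in sgHS2, 412.3 ± 3.25 in sgHBG, 326.6 ± 31.5 in sgGal4 and 299.6 ± 64.4 in sgHS1-5 (SD, n = 2 for WT and 3 for the others). Of the 39 members, 14 had a read in every library, 8 of them in cluster B and 6 in cluster C. HOXD12 alone had no counted read anywhere, though its RPKM was 0.117 and 0.107 in sgGal4 2 and 3 and 0.107 in sgHBG 2.

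**Figure D1:**
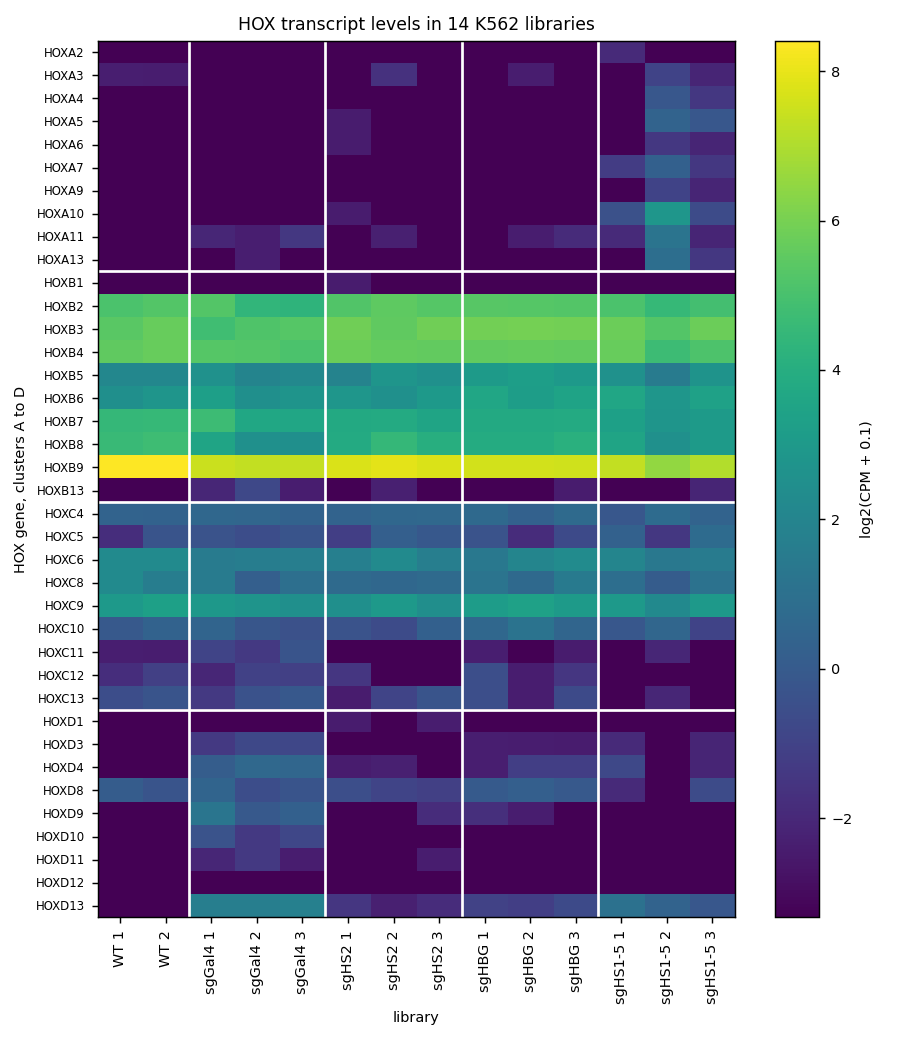
Level of 38 HOX genes (rows, clusters A to D) in each library (columns, by group), as log2(CPM + 0.1). Colours compare libraries within a row. HOXB2 to HOXB9 and HOXC4 to HOXC10 are present throughout, HOXD rows other than HOXD1, HOXD8 and HOXD12 are brightest in sgGal4, and HOXA rows are visible mainly in sgHS1-5 2 and 3.

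HOXB9 was lower in all 4 dCas9 groups than in WT, and the 5 groups did not overlap. Its level was 329.6 and 338.9 CPM in WT, 211.8, 241.6 and 213.5 in sgHS2, 192.8, 196.1 and 189.6 in sgHBG, 177.5, 161.8 and 165.0 in sgGal4, and 160.8, 91.35 and 133.2 in sgHS1-5. The lowest WT library thus lay above the highest dCas9 library, and sgHS1-5 2 was the lowest of all. The log2 difference from WT was -0.99 ± 0.17 (SE, adjusted p = 0.000499) in sgGal4, -0.59 ± 0.17 (adjusted p = 0.0175) in sgHS2, -0.79 ± 0.17 (adjusted p = 0.003) in sgHBG and -1.38 ± 0.17 (adjusted p = 4.31e-05) in sgHS1-5, by edgeR's quasi-likelihood test with Benjamini-Hochberg adjustment over 14406 genes, as for all adjusted p-values here. These comparisons share the WT libraries. The sgHS2 difference missed the threshold without WT 1 (log2 -0.61, adjusted p = 0.0816), WT 2 (-0.57, 0.103), sgHS2 1 (-0.56, 0.0568) or sgHS2 3 (-0.56, 0.055). Against sgGal4, HOXB9 passed in no group (adjusted p = 0.0663 in sgHS2, 0.363 in sgHBG and 0.0626 in sgHS1-5). In sgHS2 it passed without sgGal4 1 (log2 0.44, adjusted p = 0.0419), without sgHS1-5 2 and 3 together (0.40, 0.00509), in a fit of the 2 groups alone (0.0476) and by DESeq2 (0.0451). In sgHS1-5 it passed without sgHS1-5 1 (-0.58, 0.00801), by DESeq2 (0.0424) and by limma voom (0.0465). The share of HOX reads that were HOXB9 was 61.1% ± 1.44 (SD, n = 2) in WT, 51.6% ± 2.37 in sgGal4, 52.0% ± 1.30 in sgHS2, 46.8% ± 0.455 in sgHBG and 42.5% ± 2.74 in sgHS1-5 (SD, n = 3 each).

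HOXB8, a neighbour of HOXB9 that is known for keeping myeloid progenitors proliferating when it is overexpressed, was lowest in sgGal4 and sgHS1-5. It measured 24.5 and 26.8 CPM in WT, 14.3, 22.4 and 16.5 in sgHS2, 14.7, 14.7 and 17.1 in sgHBG, 11.3, 5.90 and 5.69 in sgGal4, and 11.3, 5.87 and 8.25 in sgHS1-5. All WT libraries lay above all others, and sgHS2 and sgHBG lay above sgGal4 and sgHS1-5. HOXB8 fell in sgGal4 against WT by 1.77 on the log2 scale (SE 0.30, adjusted p = 0.000417) and in sgHS1-5 against WT by 1.60 (SE 0.30, adjusted p = 0.000971). It rose against sgGal4 in sgHS2 (log2 1.24 ± 0.28, adjusted p = 0.00486) and in sgHBG (1.05 ± 0.28, adjusted p = 0.0162). The sgHBG call was lost without sgGal4 2 (log2 0.89, adjusted p = 0.0519), sgGal4 3 (0.87, 0.051) or sgHBG 3 (0.97, 0.0609). In sgHS2 and sgHBG against WT the difference was -0.54 ± 0.28 (adjusted p = 0.17) and -0.73 ± 0.28 (adjusted p = 0.0665), short of the threshold, which both passed in fits of the compared groups alone (0.0396 and 2.91e-12), and the second also by limma voom (0.0337). Both also passed without sgGal4 1 and sgHS2 2 together (log2 -0.75, adjusted p = 0.00605, and -0.73, 0.00357).

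HOXB7, like HOXB8, was highest on average in WT, but the order of the other groups differed. It was 22.6 and 23.0 CPM in WT, 26.4, 12.6 and 12.2 in sgGal4, 13.9, 14.4 and 11.4 in sgHS2, 14.01, 13.65 and 14.3 in sgHBG, and 10.04, 6.83 and 8.25 in sgHS1-5. Library sgGal4 1 was at the WT level or above, and the other 2 libraries were at the level of sgHS2 and sgHBG. Against WT, HOXB7 fell in sgHS1-5 (log2 -1.45 ± 0.28, adjusted p = 0.00134) and in sgHS2 (-0.79 ± 0.27, adjusted p = 0.0407), and against sgGal4 it fell in sgHS1-5 (-1.01 ± 0.27, adjusted p = 0.00962). The sgHS2 call was lost when any library of sgHS2 or WT was left out (adjusted p 0.0767, 0.0624 and 0.123 without sgHS2 1, 2 and 3, and 0.141 and 0.156 without WT 1 and 2), and with a replicate block (0.0527). The sgHS1-5 call against sgGal4 was lost in a fit of the 2 groups alone (0.0915) and without sgHS1-5 2 and 3 together (log2 -0.74, 0.242). The fall of HOXB7 in sgGal4 against WT was -0.44 ± 0.27 (adjusted p = 0.216) with all libraries and -0.88 (adjusted p = 0.000342) without sgGal4 1. In sgHBG against WT it was -0.71 ± 0.27 (adjusted p = 0.0615), and past the threshold by limma voom (0.0413) and in a fit of the 2 groups alone (5.69e-11). The sgHBG difference also passed without sgGal4 1 and sgHS2 2 together (log2 -0.71, adjusted p = 0.000567).

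The anterior-type genes HOXB2, HOXB3 and HOXB4 were lowest on average in sgGal4, as HOXB8 was. For HOXB4 the sgHS1-5 mean was nearly the same (37.2 CPM, beside 37.1 in sgGal4). Unlike for HOXB7, HOXB8 and HOXB9, WT was not the group with the highest mean. HOXB3 was 42.2 and 51.1 CPM in WT, 28.4, 36.2 and 39.2 in sgGal4, 57.6, 46.7 and 58.0 in sgHS2, 59.6, 61.7 and 60.8 in sgHBG, and 54.7, 38.5 and 54.2 in sgHS1-5. It rose against sgGal4 in all 3 targeting groups, with log2 differences of 0.64 ± 0.16 (adjusted p = 0.0087) in sgHS2, 0.81 ± 0.16 (adjusted p = 0.0032) in sgHBG and 0.50 ± 0.16 (adjusted p = 0.0245) in sgHS1-5. The 3 comparisons share the sgGal4 libraries. The sgHS2 and sgHBG calls held in all 18 other settings tried. The sgHS1-5 call was lost in a fit of the 2 groups alone (adjusted p = 0.12), and without sgGal4 1 (log2 0.38, adjusted p = 0.0509), sgHS1-5 1 (0.42, 0.0826) or sgHS1-5 3 (0.43, 0.088), and the groups overlapped at sgHS1-5 2. Every fit on RPKM values also lost this call. Against WT, HOXB3 passed in none of the 4 groups (adjusted p from 0.0661 to 0.772). In other fits it passed in sgGal4 without sgGal4 3 (log2 -0.53, adjusted p = 0.0443), without sgHS1-5 2 and 3 together (-0.43, 0.0448) and by DESeq2 (0.0493), and in sgHBG with those 2 groups alone (log2 0.38, 2.12e-08).

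HOXB2 was 33.8 and 38.7 CPM in WT, 37.9, 21.2 and 19.4 in sgGal4, 37.1, 44.6 and 39.6 in sgHS2, 41.1, 39.4 and 38.7 in sgHBG, and 34.0, 22.9 and 29.9 in sgHS1-5. The low sgGal4 mean rested on sgGal4 2 and 3, and sgGal4 1 lay among the WT libraries. HOXB2 rose in sgHS2 against sgGal4 (log2 0.64 ± 0.22, adjusted p = 0.0404), a call lost without sgGal4 2, sgGal4 3, sgHS2 1, sgHS2 2 or sgHS2 3 (adjusted p 0.128, 0.132, 0.0663, 0.107 and 0.0881), or in a fit of the 2 groups alone (0.137). A fit on RPKM values with 1 added and no filter also lost it. In sgHBG the difference was 0.62 ± 0.22 (adjusted p = 0.0544), 0.97 (adjusted p = 0.000276) without sgGal4 1, and past the threshold by DESeq2 (0.0339) and limma voom (0.0263). Without that library HOXB2 was also lower in sgGal4 than in WT (log2 -0.84, adjusted p = 0.00048) and higher in sgHS1-5 than in sgGal4 (0.51, 0.0124). HOXB4, which promotes expansion of blood stem cells when overexpressed, ranged from 34.0 to 39.3 CPM in sgGal4, 46.8 to 51.7 in WT, 47.6 to 54.0 in sgHS2, 48.2 to 50.2 in sgHBG and 26.2 to 50.4 in sgHS1-5. It passed in no comparison with all libraries (adjusted p from 0.0696 to 0.991). Without sgHS1-5 2 and 3 together, HOXB4 was lower in sgGal4 than in WT (log2 -0.41, adjusted p = 0.0101) and higher than sgGal4 in sgHS2 (0.45, 0.00524), sgHBG (0.40, 0.0123) and sgHS1-5 (0.44, 0.0469). It also passed in sgHS2 against sgGal4 without sgGal4 1 (log2 0.49, adjusted p = 0.0452), in a fit of the 2 groups alone (0.046) and in the RPKM values (0.0424 with 1 added), in sgHBG against sgGal4 in a fit of the 2 groups alone (0.042), and in sgHS1-5 against WT without sgHS1-5 1 (-0.68, 0.00309).

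HOXB5 and HOXB6, in the middle of the cluster, were highest on average in sgHBG. HOXB5 was 4.23 and 4.19 CPM in WT, 5.96, 3.87 and 4.31 in sgGal4, 3.67, 6.87 and 5.80 in sgHS2, 8.41, 9.28 and 7.67 in sgHBG, and 5.99, 2.87 and 6.35 in sgHS1-5. The sgHBG libraries lay above all others. HOXB5 rose in sgHBG against sgGal4 (log2 0.86 ± 0.29, adjusted p = 0.0466) and against WT (2.01-fold, adjusted p = 0.0313). The first call was lost without sgGal4 2, sgGal4 3 or any sgHBG library (adjusted p 0.0856 to 0.136), and the second without any WT or sgHBG library (0.0519 to 0.153). The fit with a replicate block also lost both (adjusted p = 0.0708 and 0.06). Every fit on RPKM values lost the first call, and the fit with 1 added and no filter lost the second.

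HOXB6 was 5.58 and 6.74 CPM in WT, 9.65, 5.61 and 6.51 in sgGal4, 7.08, 5.79 and 7.83 in sgHS2, 12.1, 9.19 and 11.2 in sgHBG, and 12.2, 7.10 and 10.4 in sgHS1-5. It rose in sgHBG against WT (log2 0.81 ± 0.27, adjusted p = 0.0326), where the groups did not overlap. This difference missed the threshold in every fit on RPKM values. That call was lost without WT 1, WT 2, sgHBG 1 or sgHBG 3 (adjusted p 0.21, 0.0901, 0.0963 and 0.0787). In sgHS1-5 against WT the HOXB6 difference was 0.68 ± 0.27 (adjusted p = 0.0612), 0.87 (adjusted p = 0.0179) without sgHS1-5 2 and 0.98 (adjusted p = 0.0431) without sgHS1-5 2 and 3 together. Without sgGal4 1, HOXB6 passed against sgGal4 in sgHBG (log2 0.83, adjusted p = 0.0142) and sgHS1-5 (0.70, 0.0248), and it passed in sgHS1-5 against sgGal4 without sgHS1-5 2 (0.66, 0.0476).

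**Figure D2:**
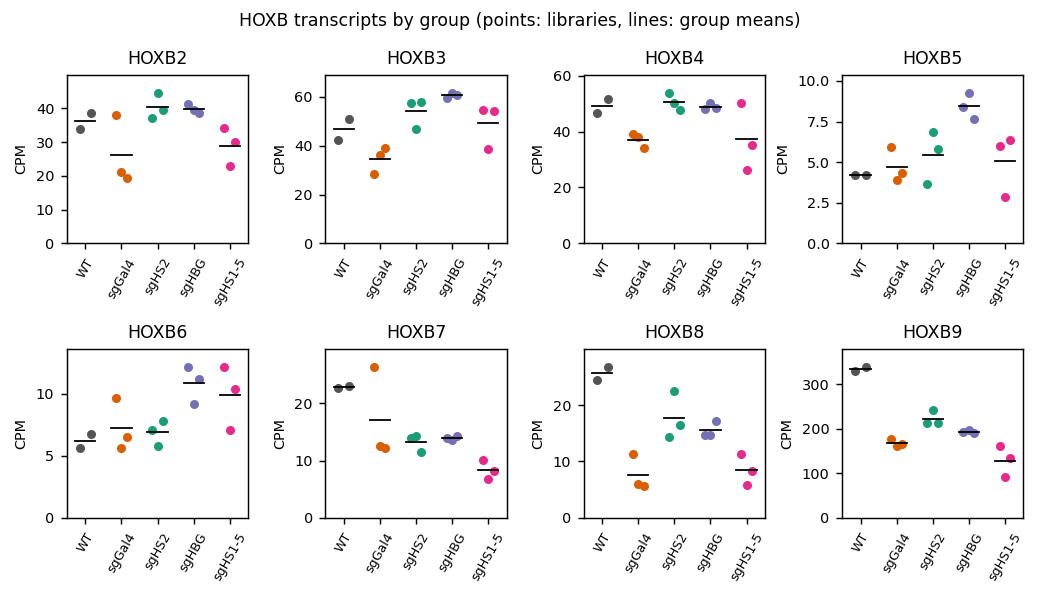
CPM of HOXB2 to HOXB9 by group on axes that start at 0, with 1 point per library and a line at the group mean. The WT points of HOXB9, 329.6 and 338.9 CPM, lie above all others, and the sgHBG points of HOXB5 lie above all others.

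**Figure D3:**
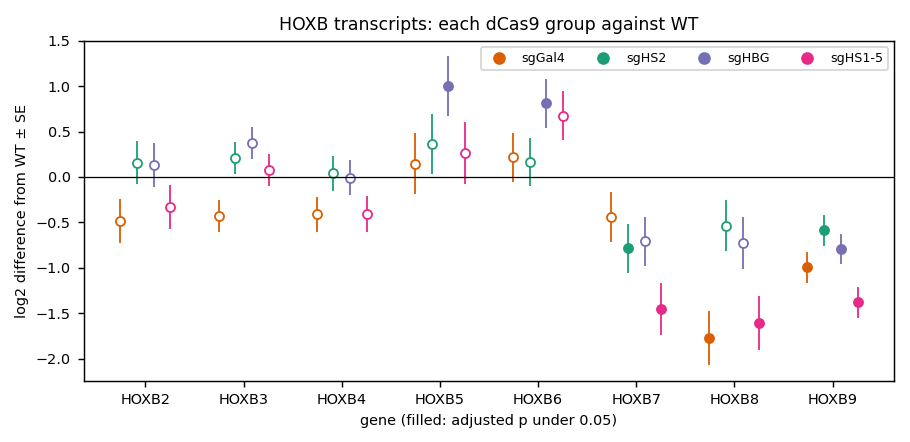
Log2 difference of each HOXB gene between a dCas9 group and WT, with bars of 1 standard error and filled points at an adjusted p under 0.05. HOXB9 lies below 0 in all 4 groups, and HOXB2 to HOXB6 lie nearer to 0 or above it.

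Of the 8 tested HOXB genes, 3 were higher and none lower in sgHS2 against sgGal4, where 30.1% of all tested genes were called (14.5% higher, 15.6% lower). In sgHBG against sgGal4 3 were higher and none lower (24.7% of all genes called, 12.1% higher and 12.6% lower), and in sgHS1-5 1 was higher and 1 lower (40.4%, 20.3% and 20.2%). Against WT, 2 were lower and none higher in sgGal4 (42.4% of all genes called, 22.7% higher and 19.6% lower) and likewise 2 in sgHS2 (33.1%, 17.6% and 15.5%). In sgHBG 2 were higher and 1 lower than WT (33.6%, 17.7% and 15.9%), and in sgHS1-5 3 were lower and none higher (42.9%, 23.4% and 19.5%). At an unadjusted p under 0.05, edgeR gave 5, 6 and 3 of the 8 against sgGal4 and 3, 2, 5 and 4 against WT, in the same order. The median log2 difference of these 8 genes was 0.43, 0.60 and 0.14 in sgHS2, sgHBG and sgHS1-5 against sgGal4, beside -0.02, 0.00 and 0.02 over all tested genes. It was -0.43, 0.10, 0.06 and -0.37 in sgGal4, sgHS2, sgHBG and sgHS1-5 against WT, beside 0.03, 0.03, 0.02 and 0.05.

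Over all 19 tested members of the 4 clusters, the calls against sgGal4 were 6 in each of sgHS2, sgHBG and sgHS1-5, or 31.6% of the members. Against WT they were 5 in sgGal4 (26.3%), 4 in sgHS2 (21.1%), 5 in sgHBG (26.3%) and 6 in sgHS1-5 (31.6%). The share of members called lay above that of all genes in sgHS2 and sgHBG against sgGal4 and below it in the other 5 comparisons, so the counts say nothing particular about HOX genes as a set. Members whose libraries did not overlap between the groups numbered 5 higher and 3 lower in sgHS2 against sgGal4, where all genes gave 20.2% and 20.0%. They numbered 8 and 3 in sgHBG against sgGal4 (24.7% and 22.9% of all genes) and none and 6 in sgHS1-5 (23.0% and 22.5%). Against WT they numbered 3 and 7 in sgGal4 (31.1% and 30.1%), 1 and 5 in sgHS2 (34.6% and 31.9%), 6 and 4 in sgHBG (39.4% and 37.6%), and 2 and 6 in sgHS1-5 (36.4% and 33.5%). Separation of the libraries was thus common among all genes, and most so against the 2 WT libraries.

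Cluster C was expressed at a low level, and HOXC8 was its single called gene with all libraries. Its summed level was 21.4 ± 1.29 CPM in WT (SD, n = 2), 15.7 ± 1.49 in sgGal4, 15.03 ± 2.41 in sgHS2, 19.4 ± 0.878 in sgHBG and 14.7 ± 2.65 in sgHS1-5 (SD, n = 3 each). HOXC9, a posterior-type gene, was 7.89 and 10.2 CPM in WT, 7.52, 6.58 and 5.60 in sgGal4, 5.60, 8.15 and 5.53 in sgHS2, 8.81, 10.4 and 8.28 in sgHBG, and 7.77, 4.64 and 8.11 in sgHS1-5. It passed in no comparison with all libraries. HOXC6 was 4.71 and 4.83 CPM in WT, 2.84, 3.0 and 3.12 in sgGal4, 3.24, 4.72 and 3.13 in sgHS2, 2.50, 3.92 and 4.88 in sgHBG, and 3.89, 2.46 and 2.84 in sgHS1-5, and it too passed in none.

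HOXC8 was 4.71 and 3.01 CPM in WT, 2.84, 1.06 and 1.83 in sgGal4, 1.57, 1.39 and 1.57 in sgHS2, 2.20, 1.52 and 2.70 in sgHBG, and 1.78, 0.956 and 2.03 in sgHS1-5. Both WT libraries lay above all dCas9 libraries. HOXC8 fell against WT in sgHS2 (log2 -1.34 ± 0.40, adjusted p = 0.0204) and sgHS1-5 (-1.28 ± 0.41, adjusted p = 0.0249). The first call was lost without WT 1 (log2 -0.98, adjusted p = 0.209) or without sgHS2 1, 2 or 3 (0.0511 to 0.0562), and the second without WT 1 (-0.93, 0.205), without sgHS1-5 2 (0.0741) or without sgHS1-5 2 and 3 together (log2 -1.10, 0.179). In sgGal4 against WT it was -1.04 ± 0.40 (adjusted p = 0.0508), and -1.40 (adjusted p = 0.0114) without sgGal4 1, and it passed there without sgHS1-5 2 and 3 together (log2 -1.06, adjusted p = 0.0328), by limma voom (0.0259), with a replicate block (0.0104), with RLE factors (0.0497) and with the filter of 1 CPM (0.0431). In sgHBG against WT it was -0.84 ± 0.39 (adjusted p = 0.115), and it passed in a fit of the 2 groups alone (0.00146) and with a replicate block (0.0314). Against sgGal4, edgeR called 0 of the 6 tested HOXC genes in each of the 3 comparisons, with 0 at an unadjusted p under 0.05, and DESeq2 and limma voom also called 0.

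The other tested HOXC genes lay near 1 CPM. HOXC4 ranged from 0.81 to 1.64 CPM over the 14 libraries and HOXC10 from 0.406 to 2.14, highest on average in sgHBG (1.62 ± 0.457 CPM, SD, n = 3). HOXC5 ranged from 0.178 to 1.62 CPM. HOXC4 and HOXC5 share transcribed sequence, so the split of reads between them is uncertain. HOXC11, HOXC12 and HOXC13, the posterior end of the cluster, did not pass the filter and had 19, 28 and 59 reads in all 14 libraries. HOXC11 had 3, 3 and 8 reads in sgGal4 and at most 1 in any other library. Reads found mainly in sgGal4 were thus not confined to cluster D. HOXC13, by contrast, was not raised in sgGal4 (mean 0.596 CPM, beside 0.653 in WT). It had 6 and 8 reads in WT, 2, 7 and 9 in sgGal4, 1, 4 and 8 in sgHS2, 6, 1 and 6 in sgHBG, and 0, 1 and 0 in sgHS1-5.

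Cluster D was nearly silent in WT and transcribed in sgGal4. In WT, counted reads fell in HOXD8 alone, 10 and 8 of them, and the other 8 HOXD genes had none. The authors' RPKM differed for HOXD4, at 0.0458 and 0.0422 in WT, beside 0.909, 1.36 and 1.22 in sgGal4. In each sgGal4 library 7 of the 9 had reads, and 6 had reads in all 3 sgGal4 libraries and in neither WT library. The summed HOXD level was 0.962 and 0.729 CPM in WT, 8.79, 7.07 and 7.61 in sgGal4, 1.05, 0.644 and 0.921 in sgHS2, 1.70, 1.96 and 1.83 in sgHBG, and 2.75, 1.23 and 1.62 in sgHS1-5. The sgGal4 libraries lay above all others.

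HOXD13, the most posterior HOXD gene and a regulator of digit formation, had 0 and 0 reads in WT and 22, 32 and 37 in sgGal4. It had 3, 1 and 2 reads in sgHS2, 4, 4 and 6 in sgHBG, and 12, 9 and 6 in sgHS1-5. In CPM this was 3.12, 3.10 and 3.39 in sgGal4, 0.262, 0.107 and 0.184 in sgHS2, 0.40, 0.357 and 0.523 in sgHBG, and 1.94, 1.23 and 0.811 in sgHS1-5, so that no 2 groups overlapped. HOXD13 was at least 22.9-fold higher in sgGal4 than in WT (a bound with 3 reads over the WT group, adjusted p = 9.62e-06), at least 9.20-fold higher in sgHS1-5 (adjusted p = 9.61e-05) and at least 3.05-fold higher in sgHBG (adjusted p = 0.00209). In sgHS2 the bound was 1.35-fold (adjusted p = 0.041), a call lost without WT 1, WT 2, sgHS2 1 or sgHS2 3 (adjusted p 0.179, 0.192, 0.106 and 0.0602), by DESeq2 (0.0815) and without a filter (0.057). Every fit on RPKM values also lost the sgHS2 call. Such bounds, and the intervals given with read ratios, allow for counting error alone, because amplified reads that carry no molecular identifier need not be separate molecules. Against sgGal4, HOXD13 was lower in all 3 targeting groups: 16.96-fold in sgHS2 (log2 -4.00 ± 0.42, adjusted p = 3.7e-05), 7.51-fold in sgHBG (-2.87 ± 0.37, adjusted p = 0.00027) and 2.49-fold in sgHS1-5 (-1.28 ± 0.34, adjusted p = 0.0113). The sgHS1-5 difference was -0.72 (adjusted p = 0.217) without sgHS1-5 2 and 3 together.

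HOXD4, an anterior gene of the cluster, had 0 reads in WT and 7, 15 and 15 in sgGal4, against 1, 1 and 0 in sgHS2, 1, 4 and 4 in sgHBG and 3, 0 and 1 in sgHS1-5. HOXD9 had 0 reads in WT and 16, 9 and 12 in sgGal4, against 0, 0 and 2 in sgHS2, 2, 1 and 0 in sgHBG and none in sgHS1-5. Both genes passed the filter on low counts only through sgGal4, the group where they were high, so their comparisons with sgGal4 are given as reads and ratios, with no p. Each was at least 9.32-fold higher in sgGal4 than in WT. For HOXD4 the ratio of sgGal4 to sgHS2 was 20.7 (exact binomial 95% interval 5.33 to 177.1), the fold to sgHBG 4.75 and the fold to sgHS1-5 6.83. For HOXD9 the ratio of sgGal4 to sgHS2 was 20.7 (interval 5.33 to 177.1) and the ratio to sgHBG 14.2 (4.51 to 72.2), and with no read in sgHS1-5 the bound was at least 9.11-fold lower than sgGal4. These ratios rest on few reads. HOXD4 was called higher in sgHBG than in WT (at least 1.96-fold, adjusted p = 0.0435). That call was lost without WT 1 or 2, without sgHBG 2 or 3 (0.0951 and 0.0942), and with a replicate block (0.0802), DESeq2 (0.0541) or no filter (0.056). The fits on RPKM values with 1 added also lost it. In sgHS1-5 against WT, HOXD4 missed the threshold (0.0771) and passed without sgHS1-5 2 (0.0316) and without sgHS1-5 2 and 3 together (0.031).

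The remaining HOXD genes had few reads and were not tested. HOXD10 had 5, 3 and 5 reads in sgGal4 and none in the other 11 libraries, though its RPKM was 0.0343 in sgHBG 1. HOXD3 had 2, 5 and 5 reads in sgGal4 and at most 1 in any other library, and HOXD11 had 1, 3 and 1 in sgGal4 and 1 elsewhere. HOXD1 had 2 reads in all. HOXD8, by contrast, was present in WT and in sgGal4 at similar levels, 0.962 and 0.729 CPM against 1.28, 0.581 and 0.734 (log2 -0.01 ± 0.56, adjusted p = 0.995). It was 0.612, 0.429 and 0.368 CPM in sgHS2, 0.901, 1.07 and 0.872 in sgHBG, and 0.162, 0 and 0.541 in sgHS1-5, and passed in no comparison with all libraries. Without sgHS1-5 3 it was lower in sgHS1-5 than in sgGal4 (log2 -3.27, adjusted p = 0.00959) and WT (-3.29, 0.00845), and limma voom called both (0.0293 and 0.027). The antisense transcript HAGLR of the HOXD cluster had 0 and 1 reads in WT, 6, 8 and 9 in sgGal4, 0, 0 and 2 in sgHS2, 1, 1 and 4 in sgHBG, and 1, 3 and 3 in sgHS1-5. The library kit named in the labels does not mark strand, so reads from a HOX gene and an overlapping antisense gene cannot be told apart.

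Of the 4 tested HOXD genes, edgeR called 3 higher and 0 lower in sgGal4 against WT, beside 22.7% and 19.6% of all tested genes. Each targeting group had 0 higher and 3 lower against sgGal4, beside 14.5% and 15.6% of all genes in sgHS2, 12.1% and 12.6% in sgHBG, and 20.3% and 20.2% in sgHS1-5. The 3 genes are HOXD4, HOXD9 and HOXD13, which had few or no reads outside sgGal4, so these counts describe what the filter let through and support nothing. The sgHS1-5 calls were lost without sgHS1-5 2 and 3 together. In sgHBG that of HOXD4 was lost when any sgHBG library was left out, and that of HOXD9 without sgHBG 2 or 3. Their comparisons share the sgGal4 libraries. Among markers of other cells, the fibroblast list summed to 418.6 and 423.3 CPM in WT, 128.9 to 230.8 in sgGal4, 348.9 to 449.9 in sgHS2, 377 to 393 in sgHBG and 121.4 to 178.3 in sgHS1-5. COL6A3 alone made up most of this sum in every library, at 413.3 and 418.0 CPM in WT and 88.8, 176.2 and 190.6 in sgGal4. The sums thus describe mainly that gene and not the list. Of the 13 fibroblast markers 6 were tested, and 3 were higher and 1 lower in sgGal4 than in WT (22.7% and 19.6% of all genes). TWIST1 measured 19.4, 21.9 and 20.6 CPM in sgGal4 and at most 1.61 in any other library, and COL1A1 13.9 to 14.7 CPM in sgGal4, 2.69 and 3.01 in WT and 4.81 to 11.01 elsewhere. LUM, PDGFRA, THY1, FAP, PRRX1 and POSTN had 0 reads in the sgGal4 libraries. Their part in the HOXD result was not tested.

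**Figure D4:**
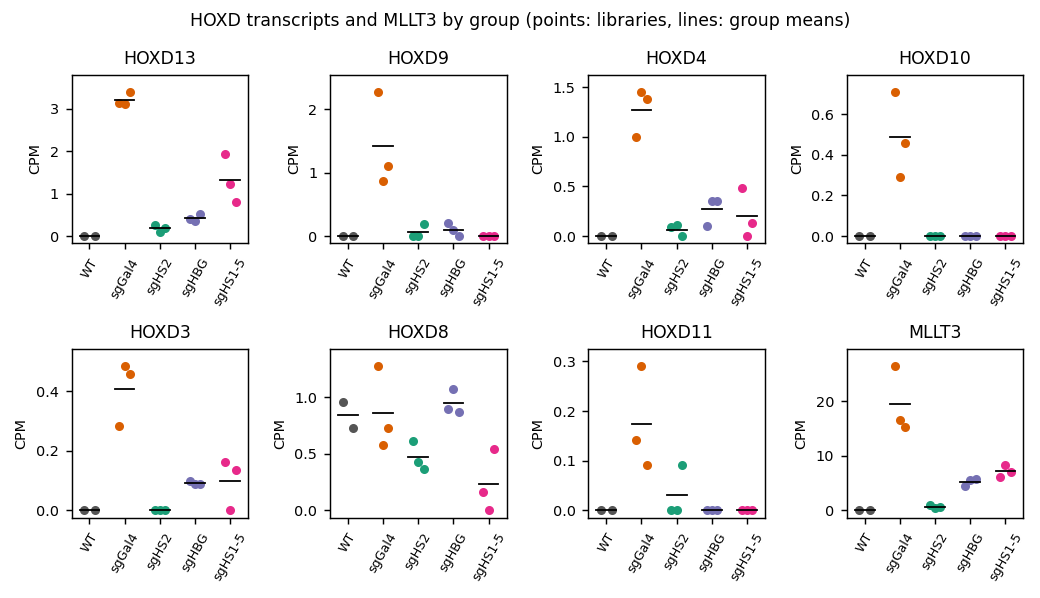
CPM of 7 HOXD genes and of the elongation factor MLLT3 by group, with 1 point per library and a line at the group mean. HOXD13, HOXD9, HOXD4, HOXD10 and HOXD3 are highest in the 3 sgGal4 libraries, HOXD8 is not, and MLLT3 has no read in WT.

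Cluster A was close to silent outside sgHS1-5, and its reads there were spread unevenly over the 3 libraries. The 11 HOXA genes together had 0 to 3 reads in each of the 11 other libraries. In sgHS1-5 1, 2 and 3 they had 8, 126 and 28 reads, or 1.30, 17.2 and 3.79 CPM. Library sgHS1-5 1 thus lay nearer to the other groups, and sgHS1-5 2 far above both replicates. HOXA transcripts made up 0.36% (exact 95% interval 0.156 to 0.709), 7.42% (6.22 to 8.78) and 1.23% (0.82 to 1.77) of HOX reads in the 3 libraries. Of the 11 genes, 10 were highest in sgHS1-5 2, and HOXA2, with a single read in sgHS1-5 1, was the exception.

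HOXA10, a gene of myeloid progenitors and leukemias, had 4, 52 and 4 reads in sgHS1-5, and 1 read in sgHS2 1 was the only other. In the same 3 libraries HOXA11 had 1, 16 and 1 reads, HOXA13 0, 13 and 2, HOXA5 0, 9 and 6, HOXA7 2, 8 and 2, and HOXA4 0, 6 and 2. Elsewhere each of these 5 had at most 3 reads in a library. HOXA3, HOXA6 and HOXA9 had at most 3 reads in any library. HOXA9, a partner of MEIS1 in leukemia, had 3 reads in sgHS1-5 2 but an RPKM of 2.22 there, beside 3.74 RPKM for HOXA10 with 52 reads, so the deposited counts and RPKM differ for this overlapping pair, and both values are uncertain. HOXA10 did not pass the filter, having more than 4 reads in sgHS1-5 2 alone. Its summed 60 reads in sgHS1-5 were at least 27.1-fold above sgGal4, but 52 of them were in sgHS1-5 2, so no test is given.

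Transcripts of the HOXA cluster that are not HOX genes were seen in the same libraries. HOXA10-AS had 1, 20 and 7 reads in sgHS1-5 and none elsewhere, a level at least 12.6-fold higher than in sgGal4. It passed the filter only through sgHS1-5, and most of its reads were in sgHS1-5 2, so no test is given. HOXA-AS3 had 0, 10 and 5 reads, HOTAIRM1 0, 6 and 5, and HOTTIP 0, 3 and 2, and none of the 3 had more than 1 read in any other library. Like the HOXA sum, the myeloid and lymphoid marker sums were highest in sgHS1-5 2 and next highest in sgHS1-5 3. The myeloid sum of sgHS1-5 1 lay within the range of the other groups. The summed level of 13 myeloid markers was 169.2, 2391 and 570.6 CPM in the 3 sgHS1-5 libraries. It was 129.5 and 141.7 in WT, 252.6 to 297.2 in sgGal4, 143.5 to 162.4 in sgHS2 and 175.4 to 177.5 in sgHBG. Of the 13 markers, 12 were highest in sgHS1-5 2. MPO, a granule enzyme of myeloid precursors, was 19.4, 1415 and 264.3 CPM in sgHS1-5 and at most 0.284 CPM elsewhere, and S100A8 had no read outside sgHS1-5 2 and 3. The 13 lymphoid markers summed to 41.3, 243.5 and 82.3 CPM in sgHS1-5, 6.06 and 9.66 in WT, 3.76 to 9.36 in sgGal4, 21.7 to 22.9 in sgHS2 and 15.3 to 19.3 in sgHBG. The B-cell marker MS4A1 was 2.43, 38.9 and 9.60 CPM in sgHS1-5 and 0 elsewhere. Of the tested markers, 7 of 10 myeloid and 11 of 11 lymphoid ones were higher in sgHS1-5 than in sgGal4 and none was lower (20.3% and 20.2% of all genes). Some of these markers, such as MPO and MS4A1, passed the filter on low counts only through sgHS1-5, so these counts support nothing. The part of the markers in the HOXA result was not tested.

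**Figure D5:**
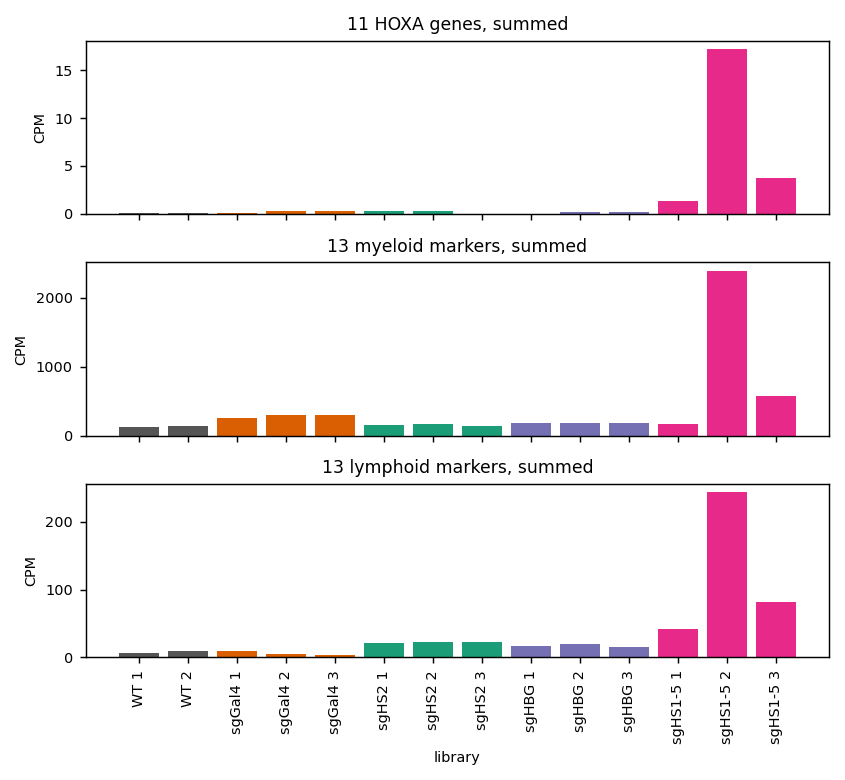
Summed CPM of the 11 HOXA genes, 13 myeloid and 13 lymphoid markers in each library, with bars from 0 coloured by group. All 3 sums are highest in sgHS1-5 2 (17.2, 2391 and 243.5 CPM) and next highest in sgHS1-5 3 (3.79, 570.6 and 82.3 CPM).

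Cluster B ran the other way among the sgHS1-5 libraries. All 8 HOXB genes with at least 1 CPM were higher in sgHS1-5 1 than in sgHS1-5 2. The ratio of sgHS1-5 2 to sgHS1-5 1 was 0.479 for HOXB5, 0.518 for HOXB8, 0.521 for HOXB4, 0.568 for HOXB9 and 0.704 for HOXB3, with a median of 0.576 over the 8 genes. For sgHS1-5 3 the median ratio to sgHS1-5 1 was 0.842. Over the 17 erythroid markers the medians were 0.674 and 0.96. With sgHS1-5 2 and 3 left out, so that the remaining library was assumed to vary like the other groups, HOXB9 and HOXB8 were still called lower than in WT (log2 -1.05, adjusted p = 0.000298, and -1.18, 0.049), whereas HOXB7 was not (-1.18, adjusted p = 0.0617). In that fit 2 of the HOX genes were called in sgHS1-5 against sgGal4 in place of 6, and 5 in place of 6 against WT.

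Of 9 genes for DNA-binding partners of HOX proteins, 8 were tested, and 4 were higher and 2 lower in sgGal4 than in WT, where 22.7% of all tested genes were higher and 19.6% lower. MEIS1, a partner of HOX proteins in leukemia, rose from 4.52 and 4.37 CPM in WT to 10.5, 12.97 and 11.3 in sgGal4 (log2 1.38 ± 0.15, adjusted p = 1.75e-05), and it was also called higher than WT in the 3 targeting groups. MEIS3 rose from 3.27 and 3.46 to 21.0, 12.7 and 13.5 CPM (log2 2.21 ± 0.25, adjusted p = 1.82e-05) and stood at 4.37, 2.73 and 3.38 CPM in sgHS1-5. MEIS2 fell from 28.2 and 28.6 to 10.5, 14.8 and 13.8 CPM (log2 -1.12 ± 0.15, adjusted p = 9.19e-05), and was higher than sgGal4 in sgHS2 (1.20 ± 0.14, adjusted p = 5.48e-05). Against sgGal4 the cofactor calls were 1 higher and 2 lower in sgHS2, 3 and 2 in sgHBG, and 3 and 2 in sgHS1-5, where 30.1%, 24.7% and 40.4% of all genes were called. Against WT they were 4 higher and 0 lower in each of the 3 targeting groups (33.1%, 33.6% and 42.9% of all genes called, in the same order).

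Of 22 genes for activators of HOX transcription, 19 were tested, and 3 were higher and 5 lower in sgGal4 than in WT, beside 22.7% and 19.6% of all genes. MLLT3, a subunit of the super elongation complex and a fusion partner of KMT2A in leukemia, had 0 reads in WT and 186, 171 and 166 in sgGal4. It was 26.4, 16.6 and 15.2 CPM in sgGal4, 0.962, 0.536 and 0.645 in sgHS2, 4.40, 5.53 and 5.67 in sgHBG, and 6.15, 8.33 and 7.03 in sgHS1-5. Like HOXD13, it was 0 in WT, highest in sgGal4 and called lower in all 3 targeting groups (log2 -4.71 ± 0.30, -1.89 ± 0.24 and -1.42 ± 0.24). A link between MLLT3 and HOXD13 was not tested, and how many other genes share this pattern was not counted. The chromatin reader PSIP1 and the methyltransferase subunit ASH2L were lower in sgGal4 than in WT (log2 -0.91 ± 0.10 and -0.76 ± 0.10), as was MLLT1, another super elongation complex subunit, (-0.49 ± 0.09). The calls against sgGal4 were 1 higher and 2 lower in sgHS2, 0 and 1 in sgHBG, and 4 and 3 in sgHS1-5 (30.1%, 24.7% and 40.4% of all genes called). CDX2 and CDX4, activators of HOX genes in the embryo, had no read in any library.

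All 31 Polycomb genes on the list were tested, and 7 were higher and 9 lower in sgGal4 than in WT, beside 22.7% and 19.6% of all genes. EZH2, the main methyltransferase of Polycomb complex PRC2, was 190.3 and 182.3 CPM in WT and 71.6, 61.1 and 63.6 in sgGal4 (log2 -1.51 ± 0.10, adjusted p = 2.64e-07). It was 60.3, 65.2 and 68.8 CPM in sgHS2, 80.2, 80.4 and 79.4 in sgHBG, and 98.6, 109 and 96.2 in sgHS1-5, so that all dCas9 libraries lay below WT. EZH1, its paralogue, fell from 75.1 and 76.9 to 25.4, 31.1 and 29.8 CPM in sgGal4 (log2 -1.40 ± 0.11, adjusted p = 1.18e-06), and PCGF3, of a variant PRC1 complex, fell by 1.43 on the log2 scale (adjusted p = 1.92e-06). PHC1, of canonical PRC1, rose (log2 0.73 ± 0.10, adjusted p = 7.7e-05), but missed the threshold in the RPKM values (log2 0.15, 0.756 with 1 added). The median log2 difference of the 31 genes was 0.02, beside 0.03 over all tested genes. Against sgGal4, 5, 4 and 6 Polycomb genes were higher and 4, 3 and 6 lower in sgHS2, sgHBG and sgHS1-5, where 30.1%, 24.7% and 40.4% of all genes were called.

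Of 18 genes of retinoic acid synthesis and response, a pathway that induces HOX genes in the embryo, 12 were tested, and 4 were higher and 2 lower in sgGal4 than in WT, beside 22.7% and 19.6% of all genes. STRA6, a receptor for retinol uptake, rose from 1.83 and 1.18 CPM in WT to 3.83, 3.77 and 4.59 in sgGal4 (log2 1.43 ± 0.28, adjusted p = 0.00144), and RARG, a retinoic acid receptor, from 5.77 and 7.56 to 9.93, 11.4 and 11.7 CPM (0.72 ± 0.17, adjusted p = 0.00435). ALDH1A2, which makes retinoic acid, fell from 505 and 501.4 CPM in WT to 28.5, 50.3 and 50.6 in sgGal4 (log2 -3.54 ± 0.24, adjusted p = 2.35e-07). It was 146 to 152.1 CPM in sgHS2, 135.8 to 143.7 in sgHBG and 133.1, 78.2 and 122.6 in sgHS1-5, higher than sgGal4 in each (log2 1.78 ± 0.21, 1.67 ± 0.21 and 1.36 ± 0.21). ALDH1A1 fell in sgGal4 against WT (log2 -1.30 ± 0.16, adjusted p = 4.56e-05). Of 20 genes that flank the clusters, 15 were tested, and 1 (HNRNPA1) was higher and 2 (CALCOCO1 and CBX5) lower in sgGal4 than in WT, with a median log2 difference of 0.04. Among 28 other transcripts of the HOX clusters, 21 were in the table and 4 were tested, and none of those 4 was called in sgGal4 against WT. MIR10A, MIR10B, MIR196A1, MIR196A2, MIR196B and MIR615, microRNA genes within the clusters, had no read in any library.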

How the data were processed

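RNA-seq of 14 libraries was used. The authors deposited raw read counts per gene for 24729 genes and RPKM values per gene for 25268 genes. TopHat, Cufflinks, DESeq and the build hg19 are named per the submitters' processing notes, and the counting tool and annotation are not given in the sources used here. Libraries were grouped by their titles. The main test was edgeR 4.0.16 (R 4.3.3) on counts, after filterByExpr (minimum count 10, total 15) had left 14406 genes. The fit had TMM factors, 14 libraries and 5 group means (9 residual degrees of freedom), with the quasi-likelihood F test, Benjamini-Hochberg adjustment over all genes tested and a threshold of 0.05. HOX members are described whatever their values. Called members are given with log2 difference, SE and adjusted p, genes of at least 1 CPM on average in a group with each library, and up to 4 called genes of lowest p stand for each other list, beside a few (HAGLR, markers, HOXA transcripts) chosen after their values were seen. Members and lists were chosen with earlier results of these data known. Some genes are not reported here. A fold against 0 reads used 3 reads over the group.

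Alternatives were RLE factors, no filter, a filter of 1 CPM in 3 libraries, DESeq2 1.42.0, limma 3.58.1 (voom), the compared groups only, a replicate block, limma-trend on log2 of RPKM plus 1 or 0.1 (which understates changes of low genes; values of at least 0.1, or no filter), and fits without single libraries, without sgHS1-5 2 and 3, or without sgGal4 1 and sgHS2 2. The test was tried on simulated data. Depth was 5694448 to 11335831 reads. Some gene pairs overlap, and their reads may be divided in error.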

Additional observations from a re-analysis of the deposited data

How the results depend on the processing

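The number of HOX genes called moved by over 1.5 times in these settings. With RPKM values plus 1, plus 0.1, and plus 1 without a filter, sgHS2 against sgGal4 gave 12, 11 and 12 calls in place of 6, sgHS1-5 against sgGal4 17, 18 and 15 in place of 6, and sgGal4 against WT 10, 11 and 11 in place of 5. In sgHBG against WT, plus 1 gave 3 with and 3 without the filter in place of 5, and in sgHS1-5 against WT plus 0.1 gave 12 in place of 6. Without a low-count filter sgHS1-5 gave 12 against sgGal4 and 11 against WT. In sgHS1-5 against sgGal4, a filter of 1 CPM gave 3 and a fit of the 2 groups alone gave 1. Without sgHS1-5 2 and 3, sgHS1-5 against sgGal4 gave 2 and sgGal4 against WT 8. Without sgGal4 1 and sgHS2 2, sgHBG against WT gave 8. The fits without a low-count filter and those on RPKM values also tested members outside the main 19, such as HOXD3 and HOXD10, so their counts have a different base. The share of all genes called in each setting is not given here or below. These counts therefore say nothing particular about HOX genes. The cause of the shifts was not tested.

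Leaving out each library in turn gave 3 to 7 calls for sgHS2, 2 to 7 for sgHBG and 3 to 6 for sgHS1-5 against sgGal4. Against WT it gave 4 to 7 for sgGal4, 0 to 2 for sgHS2, 2 to 3 for sgHBG and 4 to 7 for sgHS1-5. For sgHS2 against WT, edgeR gave 0 in place of 4 without WT 1, sgHS2 1 or sgHS2 3, with 2, 4 and 4 at an unadjusted p under 0.05; with all libraries DESeq2 gave 3 and limma voom 4. Values under other settings were pooled over the called HOX genes and up to 4 called genes per comparison from lists such as cofactors and Polycomb genes. Of these, 2605 stayed past the threshold in the same direction, 286 missed it and none reversed. Most of the values were not of HOX genes, and a larger share of the HOX values missed it. Settings in which a gene was not tested are left out. In sgGal4 against WT, HOXD9 had values in 13 settings and HOXB9 in 17.

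With a replicate block the calls were 6, 5 and 6 for sgHS2, sgHBG and sgHS1-5 against sgGal4, 6 for sgGal4 against WT, and 3, 4 and 6 for sgHS2, sgHBG and sgHS1-5 against WT. Replicate numbers did not pair the libraries: same-numbered deviations correlated from -0.523 to 0.349 over 26 pairs, 1 of them above 0.1, and 3 libraries correlated best with their own number. The highest correlation between libraries of different groups was 0.619, of sgGal4 1 with sgHS2 2. Low counts limit clusters A and D: a gene with no read may have been present at up to 0.262 to 0.486 CPM, and calls there rest on at most 91 reads in a group.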
